A study of Mus musculus with 20 samples.

Results

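Livers of cold-exposed mice with and without Sirt2 were compared across all expressed genes, using the 5 libraries of the Sirt2-/-/CE group and the 5 libraries of the CE group, out of 20 libraries in the series. The members were taken by their labelled genotype and treatment, with no use of measured values. The CE mice were wild-type C57BL/6 mice kept at 4 °C for 3 h per day over 3 weeks from an age of 5 weeks, and the Sirt2-/-/CE mice carried a Sirt2 knockout on the C57BL/6 background and had the same cold exposure. The unexposed Control (wild-type) and Sirt2-/- groups, each of 5 mice, entered the same fit, where they shared in the filter and the estimate of spread; both calls reported here are lost without them. The knockout was made by injecting a ribonucleoprotein directed at exons 5 to 7 into fertilized eggs, so it affects every cell type of the liver, and the wild-type mice were purchased and are not described as littermates. The labels give no sex, litter, library batch or lane, so a batch that runs with genotype cannot be told apart from genotype. Each library is 1 mouse, numbered 6 to 10 in the CE group and 16 to 20 in the Sirt2-/-/CE group, and p-values measure the spread between these mice.

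SIRT2 is an NAD-dependent deacetylase found mainly in the cytoplasm, where it removes acetyl groups from tubulin and from metabolic enzymes. Repeated cold exposure raises the demand for fuel, and the liver meets it by releasing glucose, lipoproteins and ketone bodies. Liver tissue consists mostly of hepatocytes by mass, with sinusoidal endothelial cells, Kupffer cells (resident macrophages) and stellate cells between them. Hepatocytes also secrete the acute phase proteins, complement and clotting factors of the blood.

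The depth was 35499796 to 47889475 counts per mouse in the 10 cold-exposed libraries. Values below are CPM (counts scaled to a common library size) after TMM scaling, a scaling that allows for differences in RNA composition, and log2 fold changes are Sirt2-/-/CE against CE from edgeR's quasi-likelihood test unless another comparison is named. Some libraries stood apart. In mouse 16, the 4946 genes with the shortest exon length had a median of 0.84 above the 4947 with the longest on the log2 scale, after each gene was centred on the 10 mice, against a range of -0.38 to 0.29 in the other 9 mice. Mouse 20 had almost no mRNA for most major urinary proteins and high mRNA for female-biased liver genes, although the Y-linked Ddx3y was at 35.5 CPM in it and between 25.97 and 67.8 CPM in the other 9 mice. CE mouse 8 had the lowest summed level of endothelial markers, and CE mouse 6 had the highest Pkm. The main results that rest on these mice are given with and without them. The Alb mRNA of hepatocytes lay between 64833 and 139857 CPM in all 10 mice, while of markers of tissues next to the liver, 10 of 15 for pancreas, 7 of 14 for muscle and 5 of 11 for adipose tissue were listed at 0 in every one of them. Others were present: the pancreatic elastase gene Cela2a was at 9.64 CPM in CE mouse 8 and at 0.223 to 1.69 CPM in the other 9 mice, and the summed adipose list ran from 106 to 1168 FPKM in the CE group and from 1103 to 1551 FPKM in the Sirt2-/-/CE group. Fabp4 of that list, which endothelial cells also express, was at 1.70 to 8.86 CPM and at 7.75 to 15.3 CPM. Its log2 fold change was 1.15, with a mean of 4.75 FPKM in the CE group and 11.04 FPKM in the Sirt2-/-/CE group. Most of the summed adipose level therefore came from other members, while Lep, Plin1, Retn, Cidea and Ucp1 were the 5 at 0. Which cells made the rest, and the part of such tissue in the results, were not tested.

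The targeted gene was lower in every knockout mouse but not absent. Sirt2 (ENSMUSG00000015149) lies on the forward strand of chromosome 7 from 28766735 to 28788661 in GRCm38. The targeted exons are shown because counts outside them are not a test of the deletion. Of the 1843 bases of transcript Sirt2-201, exons 5 to 7 hold 206, which is 11.2%, so a count over the whole gene mostly reads sequence that the knockout leaves in place. The sequence runs over chr7:28776858-28777247 with the introns removed, with the exons 5 to 7 in capitals and 20 bases of exon 4 and of exon 8 in lower case on either side.
Sirt2 exons 5 to 7: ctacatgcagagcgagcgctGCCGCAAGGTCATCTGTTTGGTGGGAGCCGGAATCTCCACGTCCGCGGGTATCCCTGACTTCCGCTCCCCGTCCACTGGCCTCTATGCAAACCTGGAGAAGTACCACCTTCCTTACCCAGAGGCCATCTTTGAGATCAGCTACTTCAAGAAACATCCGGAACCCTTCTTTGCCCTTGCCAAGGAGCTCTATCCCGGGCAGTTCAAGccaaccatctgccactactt

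Sirt2 was at 43.4, 45.2, 56.2, 40.2 and 48.0 CPM in CE mice 6 to 10, and at 27.5, 19.4, 20.8, 18.97 and 21.1 CPM in Sirt2-/-/CE mice 16 to 20. The groups did not overlap, and the highest knockout value was that of mouse 16. The mean was 46.6 ± 6.08 CPM (SD, n = 5) in the CE group and 21.6 ± 3.42 CPM (SD, n = 5) in the Sirt2-/-/CE group, 46.3% of the former. The log2 fold change of Sirt2 was -1.11 with a standard error of 0.15, and edgeR's adjusted p was 0.0043. When the fit held only the 10 cold-exposed libraries, its adjusted p from edgeR was 0.0848, and no gene was called.

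Of 15616 genes tested, 2 were changed at an adjusted p under 0.05, which is 0.0128%, namely Sirt2 and Atp11a, both lower. An unadjusted p under 0.05 was found for 951 genes, of which 608 (3.89%) were higher and 343 (2.20%) lower in the Sirt2-/-/CE group. The 5 mice of one group all lay above the 5 of the other in 127 genes that were higher (0.813%) and in 64 that were lower (0.410%). These shares are the background for the counts of gene lists below. The median log2 fold change of all genes tested was 0.02, and 52.6% of them were higher; scaling by library size only moved the median to 0.11 and the higher share to 67.0%, with 1059 genes higher and 176 lower at an unadjusted p under 0.05. DESeq2 in place of edgeR called 31 genes, 13 higher and 18 lower.

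**Figure D1:**
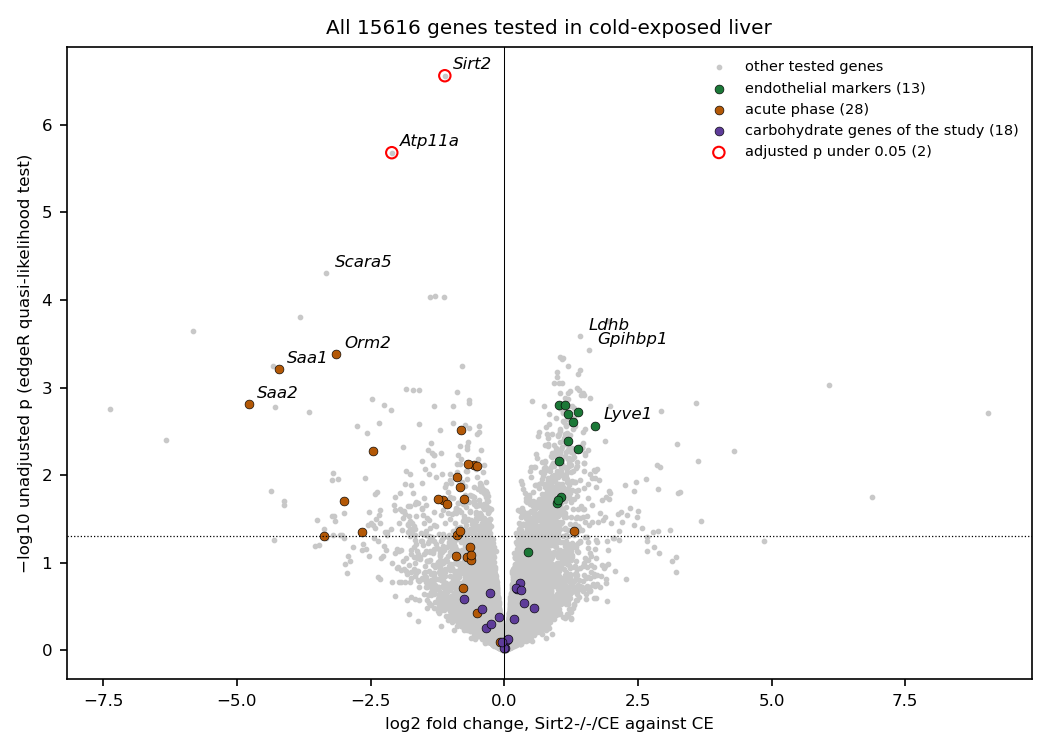
Each point is 1 of 15616 genes tested, with the log2 fold change of Sirt2-/-/CE against CE on the x axis and the −log10 of the unadjusted p of edgeR on the y axis, with a dotted line at the 0.05 threshold. Red rings mark the 2 genes with an adjusted p under 0.05, Sirt2 and Atp11a, and filled points mark endothelial markers, which lie to the right of 0, acute phase genes, most of which lie to the left, and the 18 carbohydrate genes, which lie below the line.

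Atp11a encodes a flippase, an ATPase that moves phospholipids to the inner leaflet of the plasma membrane. Atp11a (ENSMUSG00000031441, chromosome 8 from 12757014 to 12868728 in GRCm38) was at 14.2, 26.4, 33.6, 33.2 and 26.9 CPM in CE mice 6 to 10 and at 2.33, 8.22, 10.1, 6.88 and 3.70 CPM in Sirt2-/-/CE mice 16 to 20. Every knockout mouse lay below every wild-type mouse. Its mean went from 26.9 ± 7.85 CPM (SD, n = 5) to 6.24 ± 3.19 CPM (SD, n = 5), which is 23.2% of the CE mean. The log2 fold change of Atp11a was -2.10 with a standard error of 0.32, and edgeR's adjusted p was 0.0163. Its adjusted p was between 0.058 and 0.0754 in edgeR without CE mouse 8, CE mouse 9, Sirt2-/-/CE mouse 19 or Sirt2-/-/CE mouse 20, and 0.236 in the fit of only the 10 cold-exposed libraries, with log2 fold changes between -2.14 and -1.97 in those 5 fits. It was 0.092 with scaling by library size only and 0.171, with a log2 fold change of -1.59, without mice 8, 16 and 20. Of its 11150 exon bases, 199 are shared with Gm15350 on the other strand, and the counting is not stated to use strand. Of 23 flippases, scramblases and their partners tested, 9 were higher and 14 lower, and Atp11a was the 1 member with an unadjusted p under 0.05, while 3 lower members and 1 higher member had one without mouse 19; its relative Atp11b had a log2 fold change of -0.23, with the lowest value in mouse 16 (14.8 CPM).

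Beyond these genes, the lower side was led by a ferritin receptor, a cytochrome, an actin nucleator and secreted proteins, none of which passed the adjustment. By a fixed rule, the 12 genes of lowest p in each direction were taken among genes whose higher group averaged 1 FPKM or more and whose groups were fully separated, so that their direction and separation are what selected them. Of the 24, Scara5, Cpne8, Ldhb and Fgd5 passed this limit only through the group where they were higher. Scara5, the scavenger receptor for ferritin, was at 10.2, 31.7, 48.2, 20.9 and 13.3 CPM in CE mice 6 to 10 and at 1.09, 3.79, 5.66, 0.724 and 1.09 CPM in Sirt2-/-/CE mice 16 to 20. Its log2 fold change was -3.33 (standard error 0.65, adjusted p = 0.241 from edgeR). Cyb561, a membrane cytochrome that carries electrons from ascorbate, ranged from 5.77 to 14.2 CPM in the CE group and only from 4.05 to 4.86 CPM in the Sirt2-/-/CE group, with a log2 fold change of -1.29 (standard error 0.27). Of its exon bases, 377 are shared with Gm9910 on the other strand. Cobl, which nucleates actin filaments, went from 18.3 to 38.4 CPM in the CE group to 8.42 to 16.3 CPM in the Sirt2-/-/CE group, with a log2 fold change of -1.12 (standard error 0.23). Without CE mouse 6, which had the lowest Cobl and Cyb561 of its group, both had an edgeR adjusted p of 0.0484, and DESeq2 gave 0.0045 for both and 0.0006 for Scara5.

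Rnase4, which encodes a secreted ribonuclease, was at 1628 ± 541 CPM (SD, n = 5) in the CE group and 938 ± 92.8 CPM (SD, n = 5) in the Sirt2-/-/CE group, with a log2 fold change of -0.80; it shares 219 exon bases with Ang on the same strand, so reads of the 2 genes may be mixed. Slc1a2, a glutamate transporter of pericentral hepatocytes, had a log2 fold change of -0.66, and its groups ranged from 234 to 324 CPM and from 150 to 225 CPM. Complement factor C4b was at 1454 ± 315 CPM (SD, n = 5) in the CE group and 875 ± 75.3 CPM (SD, n = 5) in the Sirt2-/-/CE group, with a log2 fold change of -0.73, and its reads may be shared with C4a, which matches it at 96.0% over 5378 bases. The clotting factor F9 was between 186 and 246 CPM in the CE group and between 132 and 173 CPM in the Sirt2-/-/CE group, with a log2 fold change of -0.47. Rarres1, Cpne8 and the pseudogene Cyp21a2-ps completed the 12, with log2 fold changes of -0.95, -0.96 and -1.32. The adjusted p of these 7 genes ran from 0.426 to 0.458 in edgeR, and DESeq2 gave 0.0365 for Rnase4.

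On the higher side, the genes with the lowest p included several that are known from blood vessel endothelium. Gpihbp1, which anchors lipoprotein lipase on capillary endothelium, was at 5.65, 4.38, 5.09, 8.76 and 6.21 CPM in CE mice 6 to 10 and at 31.8, 14.9, 12.7, 14.2 and 16.9 CPM in Sirt2-/-/CE mice 16 to 20. Its log2 fold change was 1.59 (standard error 0.37, adjusted p = 0.426 from edgeR). Mouse 16 held by far the highest value. That every knockout mouse lay above the CE group was a condition for selecting this gene. The endothelial receptor kinase Tie1 had a log2 fold change of 0.99 (CE 5.32 to 9.77 CPM, Sirt2-/-/CE 10.1 to 17.03 CPM). Cd300lg, a sialomucin of vascular endothelium, had one of 1.38 (3.08 to 9.85 and 12.9 to 20.6 CPM), and Fgd5, a guanine nucleotide exchange factor of endothelial cells, one of 1.40 (1.07 to 3.88 and 4.05 to 11.3 CPM), with a mean of 0.395 FPKM in the CE group and 1.22 FPKM in the Sirt2-/-/CE group. Npr1, a receptor for natriuretic peptides, was at 5.19 ± 1.14 CPM (SD, n = 5) against 11.15 ± 1.85 CPM (SD, n = 5), with a log2 fold change of 1.10. Tinagl1, a matrix protein, had a log2 fold change of 1.41 (4.92 to 15.7 and 19.1 to 43.1 CPM), and Mxra8, a membrane protein, one of 1.08. The contractile filament gene Tpm2 and the P450 gene Cyp4b1 had log2 fold changes of 1.04 and 1.37, and Cyp4b1 matches Cyp4b1-ps2 over 333 bases.

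The remaining higher genes belong to other processes. Ldhb, the heart-type subunit of lactate dehydrogenase, was at 1.11, 1.21, 1.19, 1.38 and 1.45 CPM in CE mice 6 to 10 and at 4.37, 2.32, 2.33, 1.83 and 6.14 CPM in Sirt2-/-/CE mice 16 to 20. The CE values lay close together, and the 2 highest knockout values were those of mice 16 and 20. Ldhb had a log2 fold change of 1.42 (standard error 0.32, adjusted p = 0.405 from edgeR), and its reads may be shared with Gm5514, which matches it at 98.0% over 1002 bases. Sp100, a protein of nuclear bodies, went from 1.84 to 6.22 CPM in the CE group to 7.75 to 10.5 CPM in the Sirt2-/-/CE group (log2 fold change 1.05), and 4 other genes match part of it. Tor3a, an ATPase of the torsin family, had a log2 fold change of 1.02. DESeq2 gave an adjusted p under 0.05 to 7 of the 12 higher genes and called 31 of all 15616 genes tested. Its adjusted p ran from 0.0165 for Gpihbp1 to 0.0365 for Npr1, Mxra8, Tinagl1 and Cd300lg, with Ldhb at 0.0195 and Sp100 at 0.0346. These 12 were selected for low p and separation in the same counts, so the 7 are not independent evidence.

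**Figure D2:**
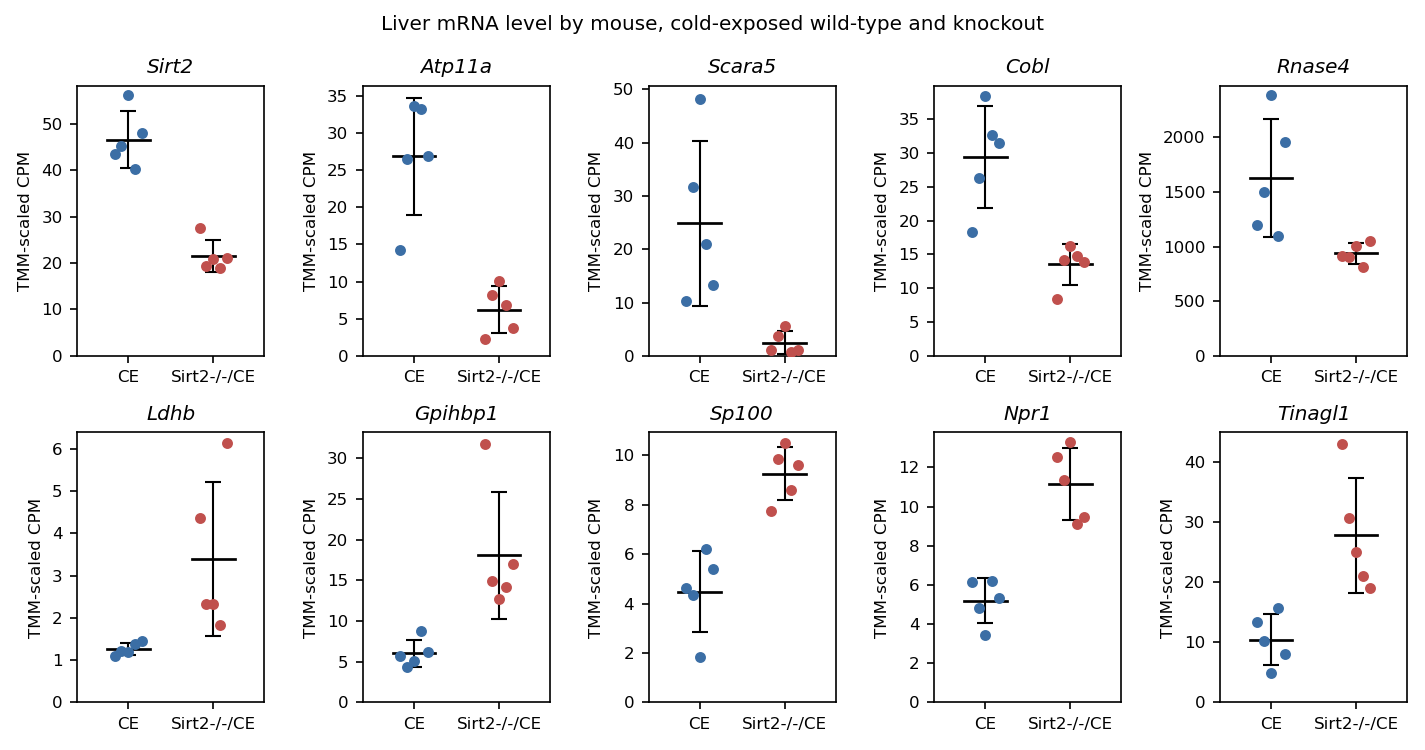
Each point is the TMM-scaled CPM of 1 mouse (y axis, linear from 0) for 10 genes with no overlap between the groups, with CE mice in blue and Sirt2-/-/CE mice in red; long bars are group means and error bars are SD (n = 5). Sirt2 fell to 46.3% and Atp11a to 23.2% of the CE mean, and in Gpihbp1 the highest point, 31.8 CPM, is mouse 16.

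Endothelial markers were higher as a group. All 13 markers of a list that holds genes of sinusoidal and other endothelial cells were tested, and 13 of 13 were higher in the Sirt2-/-/CE group, 12 of them at an unadjusted p under 0.05, where 3.89% of all genes were. None of the 13 had an adjusted p under 0.05 in edgeR or in DESeq2. In 5 markers, namely Lyve1, Clec4g, Oit3, Eng and Fcgr2b, the groups did not overlap. The median log2 fold change was 1.13, beside 0.02 for all genes, and it lay between 0.97 and 1.44 when each of the 10 mice was left out in turn. Leaving out CE mouse 8 and Sirt2-/-/CE mice 16 and 20 together gave 13 higher, 12 at an unadjusted p under 0.05 and a median of 1.07.

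The mice can be read gene by gene. Oit3 was at 10.5, 6.65, 4.02, 18.8 and 8.40 CPM in CE mice 6 to 10 and at 26.7, 29.2, 28.0, 21.2 and 21.2 CPM in Sirt2-/-/CE mice 16 to 20. Lyve1, a hyaluronan receptor of lymphatic and sinusoidal endothelium, was at 2.90, 2.73, 3.05, 7.13 and 2.66 CPM and at 11.4, 21.6, 11.3, 8.09 and 7.9996 CPM in the same order. Eng, a co-receptor for transforming growth factor beta, ranged from 13.7 to 49.3 CPM and from 51.8 to 64.9 CPM. In each of these, CE mouse 9 came closest to the knockout group, and mouse 8 was lowest in Oit3 and Eng. Kdr, the receptor for vascular endothelial growth factor, and Stab2, a scavenger receptor, had log2 fold changes of 1.39 and 1.20, with values in mouse 9 (29.6 and 34.6 CPM) that lay within the range of the knockout mice. Vwf, a marker of larger vessels, was the member with the smallest log2 fold change, 0.44. The summed level of the 13 markers was 22.0 to 98.8 FPKM in the CE group and 106 to 163 FPKM in the Sirt2-/-/CE group, with no marker at 0. In bulk tissue, more endothelial cells and more of this RNA per cell cannot be told apart.

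Markers of Kupffer cells and stellate cells lay higher too, with less separation, while those of lymphocytes and cholangiocytes did not. All 14 Kupffer cell and macrophage markers tested were higher, 7 at an unadjusted p under 0.05, with a median log2 fold change of 0.73 and no marker without overlap. C1qa, a complement subunit made by macrophages, was at 22.2, 24.2, 14.7, 42.3 and 29.7 CPM in CE mice 6 to 10 and at 75.7, 28.9, 40.8, 33.8 and 53.0 CPM in Sirt2-/-/CE mice 16 to 20, so that CE mouse 9 lay above 3 knockout mice. The Kupffer cell lectin Clec4f had a log2 fold change of 0.77. The count of 7 became 1 without CE mouse 7, 1 without CE mouse 8, 2 without Sirt2-/-/CE mouse 16 and 4 without CE mouse 6; without mice 8, 16 and 20 together, 12 of 14 were higher, 0 were under 0.05 and the median was 0.25. The summed level of the Kupffer cell list was 96.7 to 370 FPKM in the CE group and 272 to 441 FPKM in the Sirt2-/-/CE group. Of 21 stellate cell and matrix markers, 18 were higher, 4 at an unadjusted p under 0.05, with a median of 0.48, and Ecm1, a secreted matrix protein, had the lowest p, with a log2 fold change of 1.08. The count of 4 became 2 without CE mouse 8 or Sirt2-/-/CE mouse 20, 7 without Sirt2-/-/CE mouse 16, 11 without CE mouse 9 and 0 without mice 8, 16 and 20. Their median was 0.25 without CE mouse 8 and 0.75 without CE mouse 9, and their summed level was 24.0 to 134 FPKM and 111 to 150 FPKM. The 11 hepatocyte markers had a median of -0.07, which was -0.20 without mouse 16 and 0.03 with scaling by library size only, and 15 lymphocyte and neutrophil markers had one of 0.003. Cholangiocyte markers were split 3 and 3, with Spp1 (log2 fold change -0.68) and Sox9 (-0.76) lower at an unadjusted p under 0.05. Their summed level was lower, at 27.5 to 43.9 FPKM in the CE group and 16.3 to 27.7 FPKM in the Sirt2-/-/CE group. Most of that sum was Spp1, with means of 28.5 and 18.9 FPKM.

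Acute phase genes lay on the lower side. These genes encode plasma proteins that hepatocytes release in greater amounts during inflammation, under the control of interleukin 6, STAT3 and factors of the C/EBP family. Of 28 tested, 27 were lower and 1 was higher, and 19 were lower at an unadjusted p under 0.05, where 2.20% of all genes were. None had an adjusted p under 0.05 in edgeR. The median log2 fold change was -0.83, with a range from -0.96 to -0.60 when each mouse was left out in turn, and it was -0.72 with scaling by library size only. Without CE mouse 8, which had the highest Hp, Mt1 and Mt2 of the 10 mice, 26 were lower and 9 were lower at an unadjusted p under 0.05. Without mice 8, 16 and 20 these counts were 27 and 9, with a median of -0.73.

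The promoters of the 3 members with the lowest p are shown here, because the letters that C/EBP factors are known to bind occur in each of them. Each runs 300 bases in the direction of the gene, from 250 before to 50 after its start, and is taken from RefSeq for GRCm38; capitals mark the match to TTGCNNAA.
Saa1, chr7:46742931-46743230, reverse strand: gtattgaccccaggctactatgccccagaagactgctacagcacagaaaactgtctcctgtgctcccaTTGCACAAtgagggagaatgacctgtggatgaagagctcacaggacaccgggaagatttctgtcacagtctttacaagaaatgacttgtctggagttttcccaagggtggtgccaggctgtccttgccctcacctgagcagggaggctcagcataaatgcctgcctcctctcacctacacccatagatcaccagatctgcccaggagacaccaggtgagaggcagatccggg
Saa2, chr7:46751583-46751882, forward strand: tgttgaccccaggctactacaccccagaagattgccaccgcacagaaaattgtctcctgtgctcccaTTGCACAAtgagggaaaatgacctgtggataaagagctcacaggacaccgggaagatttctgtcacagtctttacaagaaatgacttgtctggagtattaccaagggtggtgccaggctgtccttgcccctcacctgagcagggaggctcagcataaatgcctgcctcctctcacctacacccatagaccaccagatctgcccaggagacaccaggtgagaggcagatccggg
Orm2, chr4:63362199-63362498, forward strand: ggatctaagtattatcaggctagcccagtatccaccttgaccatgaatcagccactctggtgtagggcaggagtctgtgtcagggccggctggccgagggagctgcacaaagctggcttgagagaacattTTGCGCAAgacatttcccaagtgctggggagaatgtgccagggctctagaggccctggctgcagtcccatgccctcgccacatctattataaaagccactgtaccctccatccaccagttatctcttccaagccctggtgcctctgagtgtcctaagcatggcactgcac

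On both strands, TTGCNNAA was found in 12 of the 24 acute phase promoters in the reference (50%) and in 10.8% of 27025 promoters of the same length. TTCNNNGAA, the letters of a STAT site, were found in 7 of 24 (29.2%) and in 8.47% of all. GGGACTTTC, a kappa B site, was found in 0 of 24 and in 0.344% of all. These are counts of letters in a short window and do not show that a factor binds there.

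Saa1, a serum amyloid A protein, was at 37.6, 288, 848, 300 and 858 CPM in CE mice 6 to 10 and at 30.6, 18.1, 38.4, 19.7 and 18.4 CPM in Sirt2-/-/CE mice 16 to 20. Saa2 was at 12.1, 117, 337, 81.4 and 472 CPM and at 13.6, 3.70, 10.4, 3.69 and 5.78 CPM, and Orm2, an alpha-1-acid glycoprotein, at 21.5, 96.8, 111, 67.9 and 516 CPM and at 21.004, 8.74, 7.63, 6.52 and 48.4 CPM in the same order. In all 3 genes, CE mouse 6 lay within the range of the knockout mice, while CE mice 7 to 10 lay above every knockout mouse. Their log2 fold changes were -4.22, -4.78 and -3.14 (standard errors 1.04, 1.304 and 0.74), with an edgeR adjusted p of 0.426 for each and DESeq2 adjusted p of 0.0081, 0.0195 and 0.0160. The abundant haptoglobin gene Hp had a log2 fold change of -1.07 and ranged from 2535 to 12847 CPM in the CE group and from 1881 to 4509 CPM in the Sirt2-/-/CE group. In Steap4 and Stat3 the groups did not overlap. The metallothioneins Mt1 and Mt2 had log2 fold changes of -2.65 and -3.36, and mouse 8 alone held 705 and 515 CPM of them, against at most 94.2 and 41.9 CPM in any other of the 10 mice. The member that was higher was Hamp, the hormone that limits iron release, with a log2 fold change of 1.31 and 33.1 to 231 CPM against 138 to 615 CPM.

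**Figure D3:**
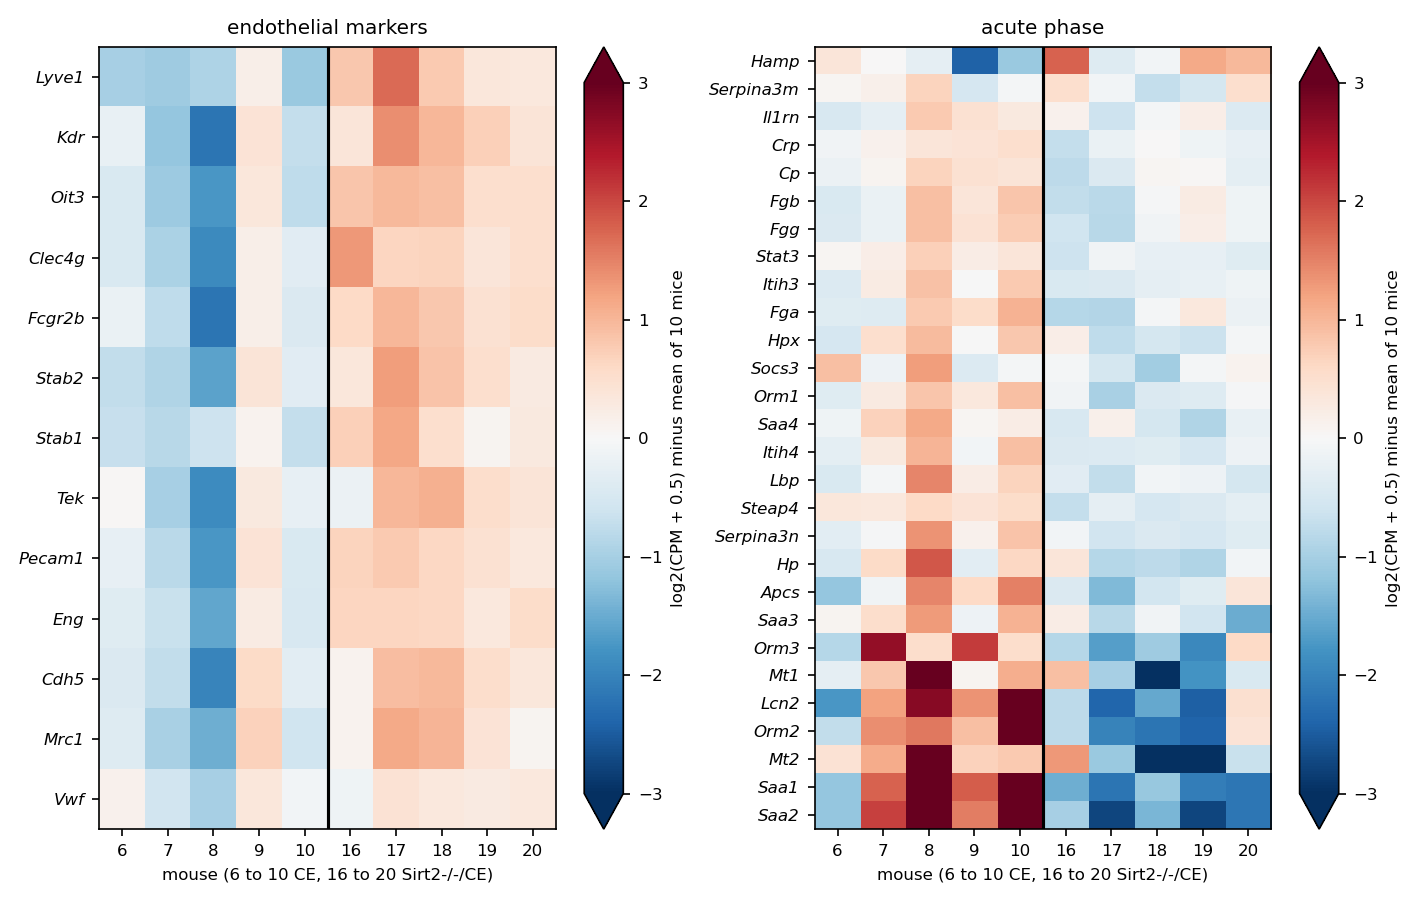
Rows are genes, columns are mice (6 to 10 CE, 16 to 20 Sirt2-/-/CE), and color gives log2(CPM + 0.5) minus the mean of the 10 mice, limited to 3 in either direction. Endothelial markers are mostly above 0 in the knockout mice and lowest in mouse 8 as a list mean, and acute phase genes are mostly below 0 there and highest in mice 8 and 10 as a list mean, with mouse 6 within the range of the knockout mice.

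Genes of complement and coagulation, which hepatocytes also secrete, lay lower by smaller amounts. Of 32 tested, 26 were lower, with 8 at an unadjusted p under 0.05, and the groups did not overlap in 5 lower genes, where 0.410% of all genes were of that kind. The median log2 fold change was -0.19. It was -0.30 without mouse 16, with 10 lower at that threshold, -0.26 with limma voom, with 13, and -0.11 with scaling by library size only, under which 3 were lower at that threshold, as were 3 without mice 8, 16 and 20. Besides C4b and F9, the anticoagulant protein S gene Pros1 had a log2 fold change of -0.43 and went from 64.8 to 83.5 CPM in the CE group to 46.6 to 61.6 CPM in the Sirt2-/-/CE group. The proteases C1s1 and C1ra had log2 fold changes of -0.32 and -0.18, also with no overlap. C9, a part of the membrane attack complex, had a log2 fold change of -0.90, and its groups overlapped.

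The question of the study was how loss of Sirt2 alters glucose metabolism in the cold. The list of glycolysis and TCA cycle genes drawn up by the authors on these mice is not independent evidence. Of these 18 carbohydrate genes, 10 were higher and 8 lower, 0 had an unadjusted p under 0.05 and the median log2 fold change was 0.03; without CE mouse 6, 2 were higher at an unadjusted p under 0.05. They were 8 higher and 10 lower without mouse 16, 4 and 14 without mice 8, 16 and 20, and 3 and 15 with limma voom (medians -0.01, -0.18 and -0.11), each with 1 lower gene at an unadjusted p under 0.05. Pkm (ENSMUSG00000032294), whose transcripts encode both the M1 and M2 forms of pyruvate kinase, was at 161, 13.6, 6.51, 16.9 and 12.01 CPM in CE mice 6 to 10 and at 42.0, 17.03, 19.6, 17.9 and 28.9 CPM in Sirt2-/-/CE mice 16 to 20. One CE mouse thus stood far above all others. The log2 fold change of Pkm was -0.75 (standard error 0.64, adjusted p = 0.935 from edgeR), and it was 1.03 without CE mouse 6 (adjusted p = 0.549 from edgeR). Of the exon bases of Pkm, 767 also belong to Gm49759, which has the same orientation. Of 23 glycolytic genes tested, 18 were higher, with Ldhb as the 1 member at an unadjusted p under 0.05. Without CE mouse 6, 4 were higher under 0.05 and the median went from 0.17 to 0.25; without Sirt2-/-/CE mouse 16 it was 0.04, with 13 higher. With limma voom 8 were higher and 15 lower, and without mice 8, 16 and 20, 6 and 17. Gluconeogenic and fasting genes were 4 higher and 13 lower, and genes of insulin signalling 4 higher and 16 lower, with 0 under 0.05 in either. Their medians of -0.10 and -0.08 were not stable in sign: the former was 0.08 without CE mouse 8 and the latter 0.03 with scaling by library size only.

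Genes of fatty acid use were mostly higher. Of 24 targets of PPARalpha, the nuclear receptor that senses fatty acids, 21 were higher and 5 were higher at an unadjusted p under 0.05, with a median log2 fold change of 0.40 that lay between 0.32 and 0.54 when each mouse was left out in turn. The acyl-CoA thioesterase gene Acot1 was at 25.6, 11.9, 16.3, 14.4 and 12.5 CPM in CE mice 6 to 10 and at 70.3, 33.4, 19.001, 32.8 and 37.6 CPM in Sirt2-/-/CE mice 16 to 20, and its groups overlapped by 1 mouse on each side. Its log2 fold change was 1.26; Acot2, which matches it at 95.1% over 1274 bases, had one of 1.26, and the pantetheinase gene Vnn1 one of 0.94. Fabp1, the liver fatty acid-binding protein, ranged from 925 to 1842 CPM in the CE group and from 1857 to 3415 CPM in the Sirt2-/-/CE group, with no overlap and a log2 fold change of 0.73. Of 28 genes of fatty acid oxidation and ketogenesis, 26 were higher, 6 at an unadjusted p under 0.05, with a median of 0.25. The mitochondrial thiolase Acat1 ranged from 269 to 317 CPM and from 330 to 484 CPM (log2 fold change 0.40). Without Sirt2-/-/CE mouse 16 the oxidation list had 0 members under 0.05 and a median of 0.09, with 2 members without CE mouse 7 or 9, 3 without CE mouse 6 or with limma voom and 15 with scaling by library size only, and without mice 8, 16 and 20 the PPARalpha targets had 1 and a median of 0.32.

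Genes for respiratory complexes and ribosomes were all higher, by small amounts that rested on mouse 16. The 37 genes of complex I and the 41 genes of complexes II to V were higher in 37 of 37 and 41 of 41 genes, with medians of 0.24 in both lists and 0 and 1 genes at an unadjusted p under 0.05. Of 77 ribosomal protein genes, 77 were higher, 2 at an unadjusted p under 0.05, with a median of 0.28. The mean level of complexes II to V, centred on the 10 mice on the log2 scale, was -0.11, -0.05, 0.06, -0.27 and -0.11 in CE mice 6 to 10 and 0.75, -0.30, -0.28, -0.11 and 0.41 in Sirt2-/-/CE mice 16 to 20. Mice 16 and 20 thus lay above the CE group and mice 17 and 18 below it. Without mouse 16 the medians were 0.04, 0.05 and -0.01, and without mice 8, 16 and 20 they were -0.13, -0.12 and -0.14, with 3 of 37, 5 of 41 and 9 of 77 genes higher. Scaling by library size only gave 12, 15 and 13 genes at an unadjusted p under 0.05 in the 3 lists, and leaving out mouse 18 gave 7, 4 and 15. With limma voom the medians were -0.03, -0.04 and -0.08, with 14, 13 and 16 genes higher. Mice 16 and 20 were also those with the highest level of short genes relative to long genes (0.84 and 0.29); the part of transcript length in this result was not tested. The 13 genes of the mitochondrial genome had a median of -0.15.

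**Figure D4:**
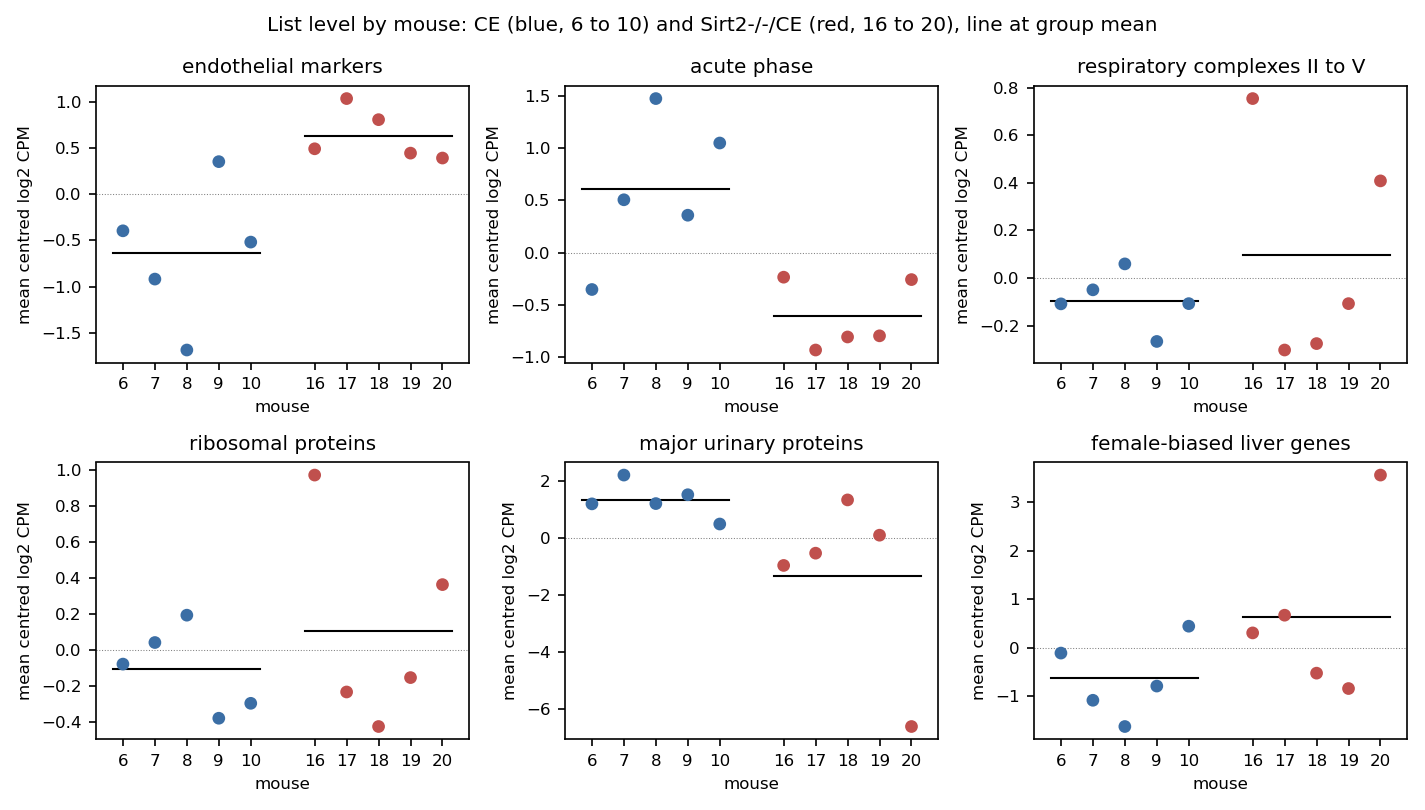
Points are single mice, CE in blue (6 to 10) and Sirt2-/-/CE in red (16 to 20), and the y axis is the mean over a list of log2 CPM centred on the 10 mice; lines are group means. Endothelial markers and acute phase genes separate most mice by genotype, while complexes II to V and ribosomal proteins are led by mouse 16 (0.75 in the former) and the lowest major urinary protein value, -6.62, and the highest female-biased value, 3.56, belong to mouse 20.

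Many glutathione S-transferases were higher, and female-biased liver genes were higher through 1 mouse. Of 21 glutathione S-transferase genes, which encode detoxifying enzymes, 17 were higher and 5 were higher at an unadjusted p under 0.05 (Gsta2 with a log2 fold change of 1.29, Gsta1 1.73, Gsta4 0.79, Mgst3 1.13 and Gstt2 0.82). The median was 0.25, and it lay between 0.12 and 0.37, with 3 to 6 genes under 0.05, when each mouse was left out in turn, the 3 without mouse 20. It was 0.06, with 12 higher and 1 under 0.05, with limma voom, which gives each library a weight, and -0.13, with 9 higher and 0 under 0.05, without mice 8, 16 and 20. Gsta1 and Gsta2 match each other at 97.2% over 870 bases, so their counts are uncertain. Of 11 female-biased liver genes tested, 9 were higher with a median of 2.28, which became 0.79 with limma voom and 0.05 without mouse 20. Cyp2a4 was at 827 CPM in mouse 20 and at 10.4 to 131 CPM in the other 9, and it matches Cyp2a5 at 98.2% over 1739 bases.

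Major urinary proteins, lipocalins that male mice secrete in urine, lay lower. Of 20 tested, 19 were lower, among them 4 with an unadjusted p below 0.05, and the median log2 fold change was -1.50, or -1.23 without mouse 20. The count of 4 became 0 without mouse 16, 1 without mouse 17 or CE mouse 7, 2 without CE mouse 8, 8 without mouse 18, and 0 without mice 8, 16 and 20 or with limma voom, while 19 or 20 were lower each time. Mup9 was at 244, 348, 544, 249 and 117 CPM in CE mice 6 to 10 and at 7.50, 52.7, 116, 81.6 and 0.387 CPM in Sirt2-/-/CE mice 16 to 20, and the groups came within 1 CPM of each other. Mup15 was at 713 CPM or more in the CE group and at 636 CPM or less in the Sirt2-/-/CE group, at 0 in mouse 20. For Mup2, Mup9 and Mup14, 15 other genes each match at 95% or more, so reads may be split between members, and the list is better read as 1 family than as 20 genes. Of 13 male-biased genes, 1 of them Mup20, 3 were higher and 10 lower, with 0 at an unadjusted p under 0.05; the split was 7 and 6 without mouse 20, without CE mouse 9 or with scaling by library size only.

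Other lists moved in few mice or had few or no members at an unadjusted p under 0.05. Of 38 cell cycle genes, 32 were lower, 7 at an unadjusted p under 0.05, with a median of -0.57; without CE mouse 6, 22 were lower, 0 were under 0.05 and the median was -0.15. The count of 7 was 3 or 4 without mouse 20, mouse 18 or CE mouse 9, 11 and 13 without CE mice 7 and 8, and 1 with limma voom (median -0.29). Mki67, a marker of cycling cells, was at 23.0 CPM in CE mouse 6, 8.18 CPM in CE mouse 9 and 3.31 CPM or less in the other 8 mice. Of 25 iron and haem genes, 18 were higher and 7 lower, with 2 higher at an unadjusted p under 0.05 and a median of 0.16. The split was 14 and 11 without mouse 16 (median 0.01) and 12 and 13 with limma voom (-0.004). Bmp6 of this list, which endothelial cells make and which induces hepcidin, had a log2 fold change of 1.27 (standard error 0.35). It ranged from 0.680 to 1.45 CPM in the CE group and from 2.04 to 3.31 CPM in the Sirt2-/-/CE group. Of 32 interferon-stimulated genes, 24 were higher, 2 at an unadjusted p under 0.05. The sirtuins other than Sirt2 had log2 fold changes between -0.27 and 0.46, with Sirt5 at an unadjusted p under 0.05. Of 30 genes tested that start within 500 kb of Sirt2, 24 were higher and 1, Ech1 (log2 fold change 0.50), had an unadjusted p under 0.05; their median of 0.17 was -0.002 without mouse 16, with 15 higher, -0.02 with limma voom and -0.04 without mice 8, 16 and 20. Lists with 0 members at an unadjusted p under 0.05 included the TCA cycle (24 genes), glycogen metabolism (16), cholesterol synthesis and uptake (25), endoplasmic reticulum stress (28), heat shock (20), the circadian clock (20), amino acid breakdown (33), and tubulins and Sirt2 substrates (22). Some of these leaned to one side. Heat shock had 18 higher and 2 lower, with a median of 0.26 that lay between 0.03 and 0.40 when each mouse was left out. The TCA cycle had 19 higher and 5 lower (median 0.11), and glycogen metabolism 13 and 3 (0.08). Cholesterol synthesis and uptake had 5 higher and 20 lower (-0.19).

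Values without cold were set beside these. The contrast of Sirt2-/- with Control shares no mouse with the cold contrast, but both come from 1 fit and share its filter and estimate of spread. Between Sirt2-/- and Control, 139 genes were called and 2329 had an unadjusted p under 0.05 (14.9%). Of the 138 called there other than Sirt2, 86 had the same sign in the cold, which is 62.3% beside 56.2% of all genes tested, and 12 of these had an unadjusted p under 0.05 in the cold, which is 8.7% beside 4.21%. Of the 24 genes taken by the fixed rule above, Sirt2 among them, 20 had the same sign without cold. Of these 20, 9 had an unadjusted p under 0.05 there, 7 of them on the lower side. The 24 were selected for full separation in the cold and are not simply those of lowest p. Scara5, Cpne8, Ldhb and Fgd5 among them passed the FPKM limit only through their higher group. Sirt2 had a log2 fold change of -0.94 without cold, Atp11a -1.17, Scara5 -2.68 and Cyb561 -1.15. Ldhb differed in sign, with -0.46 without cold and 1.42 with it. The interaction of genotype and CE, which tests whether the genotype difference changed with cold, had 0 genes at an adjusted p under 0.05 in edgeR (lowest adjusted p = 0.208) and 1303 at an unadjusted p under 0.05 (8.34%), and DESeq2 called 41. The unadjusted interaction p was 0.426 for Sirt2, 0.0459 for Atp11a and 0.0004 for Ldhb.

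The same lists differed in how their medians compared. Acute phase genes had a median of -0.49 without cold and -0.83 with it, and 7 of 28 had an unadjusted interaction p under 0.05. Endothelial markers went from 0.34 to 1.13, with 0 of 13. Complexes II to V went from -0.28 to 0.24 and ribosomal proteins from -0.28 to 0.28, with 18 of 41 and 19 of 77 at an unadjusted interaction p under 0.05, and the cold value of both rested on mouse 16. Fatty acid synthesis went from -0.63 to 0.06 (10 of 24), cholesterol synthesis and uptake from -0.89 to -0.19 (4 of 25) and endoplasmic reticulum stress from 0.52 to 0.002 (11 of 28). When each cold-exposed mouse was left out in turn, the cold medians of these 3 lists lay between -0.19 and 0.15, between -0.29 and -0.05 and between -0.13 and 0.07, so the first and last had no fixed sign. None of these genes had an adjusted interaction p under 0.05 in edgeR.

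**Figure D5:**
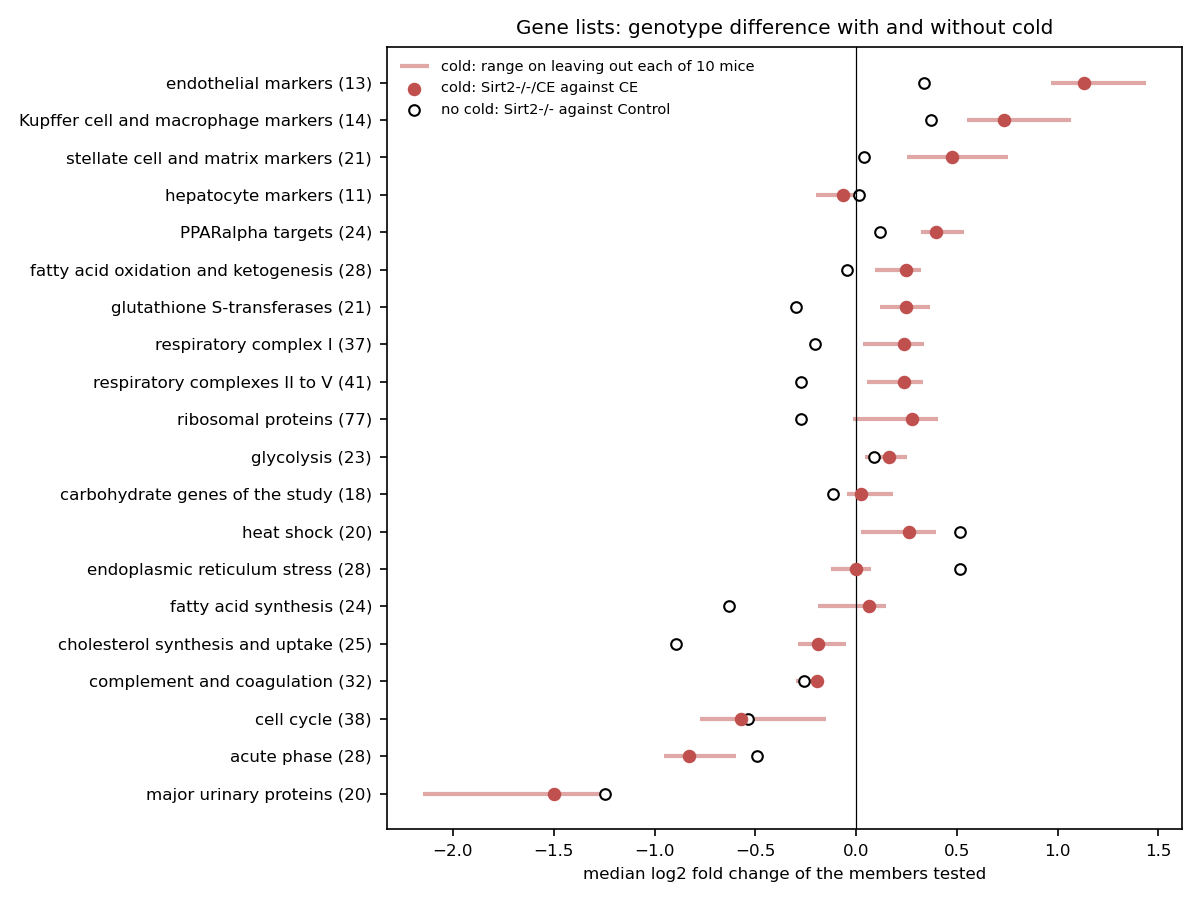
Each row is a gene list with its number of genes tested, the x axis is the median log2 fold change of its members, filled points are Sirt2-/-/CE against CE, open points are Sirt2-/- against Control, and bars span the medians found when each of the 10 cold-exposed mice is left out. Endothelial markers lie at 1.13 with cold and 0.34 without, acute phase genes at -0.83 and -0.49, and complexes II to V at 0.24 and -0.28.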

How the data were processed

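Liver RNA of 20 mice was selected on oligo(dT) beads and each mouse gave 1 library, read on the NovaSeq system of Illumina. The authors deposited 1 table with, per gene and mouse, a raw count of reads and an FPKM value scaled to gene length and depth. The submitters' processing notes name the build mm10; aligner, counting tool, strand setting and treatment of reads with several matches are not given in the sources used here. Of the lines, 9 hold no gene and were left out, which left 45306 genes, 1967 of them predicted (0.359% to 0.618% of the counts of a mouse). Groups came from the labels. Counts were analysed in R 4.3.3 with edgeR 4.0.16: filterByExpr by group (minimum count 10, minimum total 15), TMM scaling, 1 quasi-likelihood fit of all 20 libraries by group, two-sided tests, Benjamini-Hochberg adjustment over 15616 genes and a threshold of 0.05. The standard error is the log2 fold change divided by the root of F. The scripts were tested on simulated counts. No pair of the 10 libraries was alike within sampling noise (lowest median chi-square 4.43, against 0.455 from noise alone).

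Genes named are Sirt2, those called, the 12 of lowest p in each direction whose higher group averaged 1 FPKM or more and whose groups were fully separated, up to 3 members of each list with the lowest p, and Pkm; Alb, Hp, Ddx3y, Fabp1, Mup15, Mki67, Kdr, Stab2, Lyve1, Clec4g, Fcgr2b, Vwf, Clec4f, C1s1, C1ra, C9, Mt1, Mt2, Steap4, Stat3, Mgst3, Gstt2, Mup20 and Atp11b were named after their values were seen. Some genes are not reported here. The comparison, the 63 gene lists and the tests were chosen with earlier results of these data known. The alternatives were DESeq2 1.42.0, DESeq2 size factors, upper-quartile scaling, library size only, 10 counts in every library, no filter, only the 10 cold-exposed libraries, voom of limma 3.58.1 with weights per library, a minimum absolute log2 fold change of 1, and leaving out each mouse; leaving out mice 8, 16 and 20 together was chosen after seeing the data. FPKM served for summed marker levels, the filter and a count of genes without overlap, never for a test. Positions and exons are from GENCODE vM21 on GRCm38, promoters from RefSeq, and near-identical genes (95% over at least 150 bases) from BLAST 2.17.0; 95.0% of the genes tested had an exon length. Figures were drawn with matplotlib 3.10.9.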

Additional observations from a re-analysis of the deposited data

Results flagged for a closer look

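In 176 groups of 5 mice tested with Dixon's criterion, 10 held a mouse whose gap to its nearest neighbour, as a share of the group's range, was above the critical value of 0.71; chance alone gives about 1 in 20. Among single genes, CE mouse 6 stood apart in Pkm (161 CPM against a next value of 16.9 CPM, share 0.933), Sirt2-/-/CE mouse 16 in Gpihbp1 (31.8 against 16.9 CPM, share 0.778) and in Sirt2 (27.5 against 21.1 CPM, share 0.75), and Sirt2-/-/CE mouse 20 in Cyb561 (4.86 against 4.27 CPM, share 0.724). All 4 were the highest of their group.

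The other 6 were mean levels of gene lists, centred on the 10 mice on the log2 scale. CE mouse 6 was highest in the 18 carbohydrate genes of the study (0.35, share 0.753) and in hepatocyte transcription factors (0.19, share 0.755), and CE mouse 8 in gluconeogenesis and fasting genes (0.82, share 0.791). Sirt2-/-/CE mouse 16 was highest in proteasome and ubiquitin genes (0.51, share 0.743). Sirt2-/-/CE mouse 20 was highest in xenobiotic P450s (0.86, share 0.729) and lowest in major urinary proteins (-6.62, share 0.711).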

How the results depend on the processing

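The count of 2 changed genes was 31 with DESeq2 (13 higher, 18 lower), 1 with scaling by library size only, 0 with only the 10 cold-exposed libraries, 1 to 6 when each mouse was left out, and 1 without mice 8, 16 and 20, a choice made after seeing the data. It was 6 without CE mouse 6 and 1 without CE mouse 8, CE mouse 9, Sirt2-/-/CE mouse 19 or Sirt2-/-/CE mouse 20. Sirt2 kept a log2 fold change of -1.11 with only the 10 cold-exposed libraries, at an adjusted p of 0.0848 in edgeR. The 951 genes at an unadjusted p under 0.05 became 1581 with no filter on low counts, which tests 25919 genes, 618 without mice 8, 16 and 20, and 767 to 1129 when each mouse was left out. The interaction had 41 genes with DESeq2 in place of 0. Signs turned for Pnpla3 (-0.076 with limma voom, -0.45 without Sirt2-/-/CE mouse 20 and -0.77 without mice 8, 16 and 20; -0.45 to 3.40 when each mouse was left out), for Pkm without CE mouse 6 (1.03; -1.02 to 1.03 when each mouse was left out), and without mice 8, 16 and 20 for G0s2 (-0.17) and Bst2 (-0.003). The causes of these changes were not tested. Of 1723 values of the 91 named genes under these alternatives, 1693 kept direction and side of the threshold. Another 16 passed it, 8 no longer passed it and 6 turned. Only Sirt2 and Atp11a passed it in the main fit, so all 8 losses are theirs and no other named gene could lose it. The count of 1693 is therefore no measure of stability. No paired analysis was possible because mice carry running numbers, 1 to 20, and no number occurs in more than 1 group. With 5 mice a group, the spread between mice limits which differences can be called.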
